A study of Arabidopsis thaliana with 36 samples.

Results

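Among the root libraries of an Arabidopsis thaliana seedling experiment, the water sets S0 and PH0 carry the same description of tissue, genotype and treatment, and the comparison of these sets shows how far roots labelled alike differed. The libraries were chosen by their titles and column codes, which are 1A, 1B and 1C for S0 and 7G, 7H and 8A for PH0, so 6 of the 36 libraries of the series enter the comparison, 3 in each set. Both sets are roots of wild-type seedlings of the ecotype Columbia-0, 7 d old, grown at 21 °C in cycles of 16 h light and 8 h dark on Murashige and Skoog medium with 1% sucrose. Both sets are labelled as held in water for 1 h, although the treatment description starts its time course at 0 h, so the time in water is taken from the label alone. They were without PEG (polyethylene glycol, which lowers the water potential of a solution) and without SHAM (salicylhydroxamic acid, which blocks the alternative oxidase and lipoxygenases). Each replicate pooled 30 to 50 seedlings, and roots and shoots were separated after the treatment. Nothing in the labels besides the title prefix and the code tells the S0 roots apart from the PH0 roots. A date, a plate or an extraction round is not given for either set, so whatever differed between the sets besides the prefix was not tested.

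The remaining libraries are a further water set, PS0, and roots in PEG with SHAM for 1, 2 and 3 h, with 3 libraries each, and the shoots of all 6 groups. RNA was counted by MARS-seq, a method that tags and sequences the 3′ ends of transcripts. A seedling moved into water meets a change of touch, wetness and nutrient supply. Roots answer touch and wounding within minutes through calcium sensors and short-lived transcription factors, such as the calmodulin-like protein TCH3 and the zinc-finger repressor STZ. They answer a change of nitrate through nitrate and nitrite reduction and through LBD repressors, and they take up water through PIP aquaporins. Wild-type controls of 1 experiment are usually expected to differ little in such genes, and actin and ubiquitin transcripts often serve as reference genes for that reason.

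Values are normalized counts, that is, gene counts which the authors had divided by 1 factor per library. The S0 libraries held 1892, 862 and 1883 kiloreads (replicates 1 to 3), and the PH0 libraries 2446, 2652 and 2085. S0 replicate 2, the shallowest, also stood apart in its values. Over log2 values its correlation with the other S0 libraries was 0.916 and 0.926, while S0 replicates 1 and 3 correlated at 0.965 and the PH0 libraries at 0.975 to 0.98 among themselves. In the fit over all root libraries no call on a gene of the lists below held without this library, nor without any 1 of the PH0 libraries. Levels and medians that S0 replicate 2 moved are given with and without it. The root label held in both sets: 17 root hair markers summed to between 2250 and 2801 in S0 and between 1529 and 1938 in PH0, against at most 47.5 in any shoot library. Of 26 photosynthesis genes, which mark shoot tissue, the sum was 1667, 2370 and 2353 in S0 and 1137, 1054 and 1320 in PH0, against at least 188512 in any shoot library. The photosynthesis sums of the sets did not overlap, and at most 2 of these genes were at 0 in any of the 6 libraries. Their part in the differences below was not tested.

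Of 11950 tested genes, 463 (3.87%) differed between S0 and PH0 roots at an adjusted p under 0.05, by limma on log2(normalized count + 1) with Benjamini-Hochberg adjustment over all tested genes. Of these, 408 (3.41%) were higher and 55 (0.46%) lower in S0. The fit drew its estimate of the spread from all 18 root libraries. Without adjustment 3173 genes had a p under 0.05, and in 6210 genes (52%) the 3 S0 values and the 3 PH0 values did not overlap, with S0 higher in 4582 (38.3%) and lower in 1628 (13.6%).

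The gene with the firmest difference was AT5G62720, annotated as an integral membrane protein of the HPP family. It had 185.8, 175.7 and 213.9 normalized counts in S0 roots, against 27.8, 26.3 and 35.2 in PH0 roots. Each S0 library stood far above each PH0 library, with a log2 difference of 2.65 ± 0.27 (SE; limma adjusted p = 0.000135). This was the only gene called in all 6 fits that left out 1 of the 6 compared libraries. The number of calls was 45, 2 and 50 without S0 replicates 1, 2 and 3, and 1, 1 and 4 without PH0 replicates 1, 2 and 3. When the 6 compared libraries were fitted alone, 4581 genes were called, 3638 higher and 943 lower in S0, and without S0 replicate 2 that fit called 4816, 3632 higher and 1184 lower.

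The balance between higher and lower calls depended on the scaling. Over all tested genes the median difference was 0.29 (log2) with the authors' factors. With TMM factors on recovered reads it was -0.01, and 92 genes were higher and 91 lower. Quantile normalization gave 513 higher and 529 lower, edgeR 602 and 263, DESeq2 1089 and 464. When the median of the tested genes was set to 0 in each library, 116 were higher and 292 lower. Differences below are given with the authors' factors and read against the median of 0.29.

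The differences did not form 1 bell. Among 6488 genes whose mean reached 20 in either set, most lay near 0, with 1839 genes between -0.5 and 0 and 1726 between 0 and 0.5. The number fell to 326 between 1 and 1.5 and then rose again, to 364 between 1.5 and 2 and 366 between 2 and 2.5. In all, 968 genes were at 1.5 or more, while 14 were at -1.5 or less. Of the 968, the test called 224 higher in S0. The limit of 1.5 was set after the distribution was seen, so this group is a description.

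**Figure D1:**
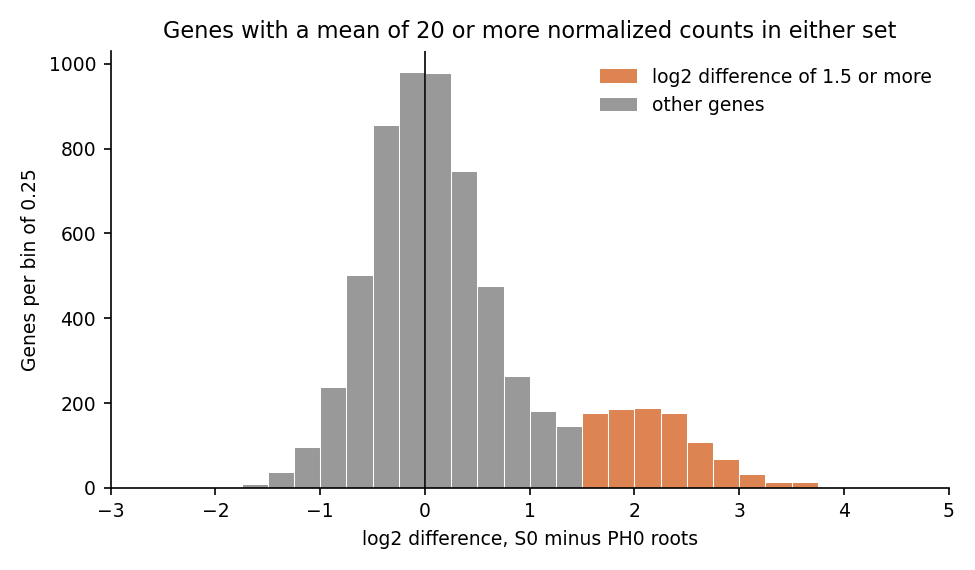
Number of genes (y axis) in bins of 0.25 of the log2 difference between S0 and PH0 roots (x axis), for the 6488 genes whose mean reached 20 normalized counts in either set. Besides the main peak near 0 there is a second, lower one near 2, coloured for the 968 genes at 1.5 or more.

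The choice of these 968 genes fixed that they were high in S0, so their levels are a description. Their median was 29.7, 64.9 and 31.8 normalized counts in S0 replicates 1 to 3, against 8.1, 7.8 and 8.9 in PH0. The median of the other 5520 genes was 56.4, 57 and 56 in S0 and 56.4, 57.2 and 59.2 in PH0. S0 replicate 2 had the highest median. Without it, 744 of the 968 genes had a difference of 1.5 or more, and the median difference of the group was 1.8, against 2.17 with it.

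Root libraries that took no part in the choice of these genes also differed in them, within their own groups. In the PS0 water set the median was 8.1, 12.9 and 34.2, the highest in replicate 3, which had 521 kiloreads. After 1 h of PEG with SHAM it was 9.4, 12.8 and 2.3, after 2 h 5.3, 12.5 and 7.9, and after 3 h 4.2, 6.5 and 12.5. In all 6 root groups the library with the fewest reads had the highest median, among them S0 replicate 2 with 862 kiloreads, the 1 h library with 430 and the PH0 library with 2085. The S0 and PH0 groups did take part in the choice of the genes, so the order within these groups is not independent of it. In 4 of the 6 groups, S0 and PH0 among them, the deepest library had the lowest median. The lowest of all, 2.3, was in the library with 7181 kiloreads. The median of the other genes lay between 52.6 and 59.2 in all 18 root libraries. In shoots the library with the fewest reads had the highest median of the 968 genes in the S0, PS0 and 1 h groups. It did not in the PH0, 2 h and 3 h groups, where its median was 0, 0 and 1.5. The part of depth in the difference between the sets was not tested beyond the fit with log2 depth as a term, which called 939 genes higher and 215 lower.

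**Figure D2:**
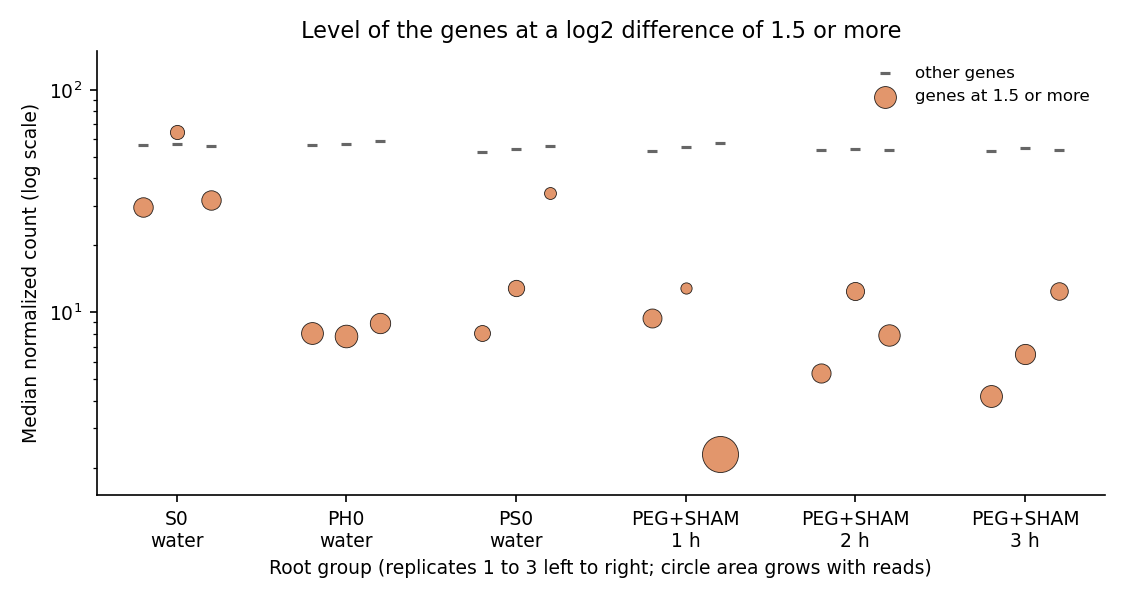
Median normalized count (y axis, log scale) of the 968 genes with a log2 difference of 1.5 or more (circles) and of the other 5520 genes (dashes) in each of the 18 root libraries, by group (x axis). The circle area grows with the reads of the library. The circles lie between 29.7 and 64.9 in S0 and between 7.8 and 8.9 in PH0, and spread from 8.1 to 34.2 within the PS0 set, while the dashes stay between 52.6 and 59.2.

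Shoots of the same seedlings were sequenced as separate libraries. Of the 968 genes, 672 were tested in shoots, where 279 were called higher and 1 lower in S0, while 11.3% of all tested shoot genes were called higher. Of the 672, 440 (65.5%) had a shoot difference of 1.5 or more, against 394 of 5253 other genes (7.5%). The median shoot difference was 2.03 for the 672 genes and 0.14 for the 5253. The medians of the 968 genes were 18.5, 10.9 and 5.2 in S0 shoots, against 0, 2.5 and 1.8 in PH0 shoots. A gene was tested if it reached 5 in 3 of the 18 shoot libraries, so the S0 shoots alone could admit it. That favours high shoot differences among the tested genes, and PH0 shoot replicate 1 held 162 kiloreads. The shoot shares are therefore a description.

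The transcripts of this group were short and poor in G and C. By the longest transcript of each locus in RefSeq TAIR10.1, available for 6424 of the 6488 genes, their median length was 1199 bases and their median GC content 40.3%, against 1710 bases and 42.4% for the other genes. The share of genes at 1.5 or more was 28.3%, 17.2%, 10% and 4.3% from the shortest to the longest quartile. It was 31.9%, 16.8%, 8.84% and 2.3% from the lowest to the highest quartile of GC content. Within the 2 middle length quartiles the shares by GC quartile were 27.1%, 15.3%, 9.48% and 2.49%. By mean level the share was 31.6% in the lowest and 5.67% in the highest quartile. These are descriptions over genes, made after the group was seen, and the part of length or base composition in the difference was not tested.

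The genes with the largest called differences mostly had low levels in PH0 roots. GSTF9, a glutathione S-transferase that conjugates glutathione to reactive compounds, was the exception with a high level in both sets. It had 2207, 4168 and 2813 normalized counts in S0, against 207.7, 242.2 and 319 in PH0, a log2 difference of 3.55 ± 0.71 (SE; limma adjusted p = 0.0232). AT5G37990, annotated as a methyltransferase of the S-adenosylmethionine-dependent family, had 42.7, 82.3 and 66.8 in S0, against 1.3, 1.2 and 3.9 in PH0 (4.43 ± 0.83; limma adjusted p = 0.0164). The named genes were chosen without overlap between the sets, so that each S0 value exceeded each PH0 value in both genes was fixed by the choice.

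AT3G08610, annotated as a subunit of the mitochondrial NADH dehydrogenase (complex I), had 193.2, 625.3 and 235.6 in S0, against 21.9, 14.4 and 22.9 in PH0 (log2 difference 3.91 ± 0.97 SE). IDH-VI, an isocitrate dehydrogenase, had 32.2, 49.1 and 36.9 in S0, against 4, 0.8 and 2.8 in PH0 (3.62 ± 0.91). The S0 values of both genes were highest in replicate 2, and neither gene was called with TMM factors, with a pseudocount of 0.5 or with a filter of 20. MT1C, a small metal-binding protein of the metallothionein family, had 192.6, 307.1 and 225.4 in S0, against 19.3, 11.9 and 21.2 in PH0 (3.73 ± 0.86). Metallothionein genes are close copies of each other, and the treatment of reads shared between copies is not stated in the labels. AIR1, known from auxin-treated root cultures, had 89.2, 139.3 and 56 in S0, against 4.5, 4.9 and 6.7 in PH0 (3.83 ± 0.78). Its values did not overlap, by the same choice.

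The peroxidase gene AT2G35380 had 40.3, 79.1 and 20.4 in S0, against 1.8, 3.3 and 2.2 in PH0 (log2 difference 3.61 ± 0.62 SE). The other named genes were AT3G29034 and AT1G68238, annotated as uncharacterized proteins, AT4G30660 of the low temperature and salt responsive family, AT4G30010, annotated as an RNA helicase, and AT1G49500, annotated as similar to a transcription initiation factor. Their log2 differences were 4.16, 4.11, 3.70, 3.57 and 3.57, with SE between 0.73 and 0.92. Limma adjusted p was between 0.0138 and 0.0434 over the 12 named genes. Replicate 2 was the highest S0 library in all 12, as it was in 350 of the 408 higher genes and in 51.5% of all tested genes. In the fit over the root libraries none of the 12 kept its call without S0 replicate 2, although all stayed higher in S0. None kept it without any 1 PH0 replicate either. All 12 were called in the fit of the compared libraries without S0 replicate 2. That fit called 4816 of 11950 genes, among them all 463 of the main fit, so this is not particular to the 12.

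Genes lower in S0 differed less, and with smaller SE. GLN1;4, a cytosolic glutamine synthetase that fixes ammonium into glutamine, had 21.1, 12.7 and 33.1 normalized counts in S0, against 90.4, 78.5 and 78.8 in PH0. Its log2 difference was -1.94 ± 0.40 (SE; limma adjusted p = 0.0262). In PS0 the gene had 8.1, 14.2 and 9.3, so PH0 roots were the high ones among the 3 water sets. ASPGB1, an asparaginase that frees ammonium from asparagine, had 104.7, 148.8 and 119.7 in S0, against 296.8, 302.6 and 346.4 in PH0 (-1.35 ± 0.19; limma adjusted p = 0.0113). PS0 roots, at 336, 324 and 378.8, were level with PH0 in this gene, so here S0 was the set that stood apart.

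DIC2, a carrier of dicarboxylates across the inner mitochondrial membrane, had 40.3, 71.2 and 60.5 in S0, against 180.9, 167.3 and 226.2 in PH0 (log2 difference -1.75 ± 0.44 SE; limma adjusted p = 0.0434). SUFE2, which activates the release of sulfur for iron-sulfur clusters, had 39, 52.2 and 39.5 in S0, against 109.7, 123.3 and 119 in PH0 (-1.42 ± 0.24; limma adjusted p = 0.0132). The SUFE2 values of each set lay within a narrow range. The gene kept its call without S0 replicate 1 and without S0 replicate 3, and ASPGB1 without any 1 of the S0 replicates, while neither kept it when a PH0 replicate was left out.

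STZ, a zinc-finger repressor induced by salt, cold and wounding, had 109.6, 207.4 and 151.5 in S0, against 402.5, 420.2 and 454.2 in PH0 (log2 difference -1.49 ± 0.41 SE; limma adjusted p = 0.0498). AT4G27280, a calcium-binding protein with EF hands, had 62.6, 115.6 and 100 in S0, against 217.1, 246.7 and 274.3 in PH0 (-1.44 ± 0.35; limma adjusted p = 0.0422). Neither gene overlapped between the sets, which the choice of named genes required. AT4G29780, annotated as a nuclease, AT1G10690, annotated as a cyclin-dependent kinase inhibitor, EMB1586, of the nucleoside triphosphate hydrolases with a P-loop, AT2G44290, of the lipid-transfer protein family, and the uncharacterized AT3G45730 and AT5G17350 had differences of -1.39, -1.45, -1.36, -1.41, -1.72 and -1.63. In the fit over the root libraries, 1 of the 12 named lower genes kept its call without S0 replicate 2. None kept it without any of the PH0 replicates. All 12 were called in the fit of the compared libraries without S0 replicate 2, as were all 463 genes called in the main fit.

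**Figure D3:**
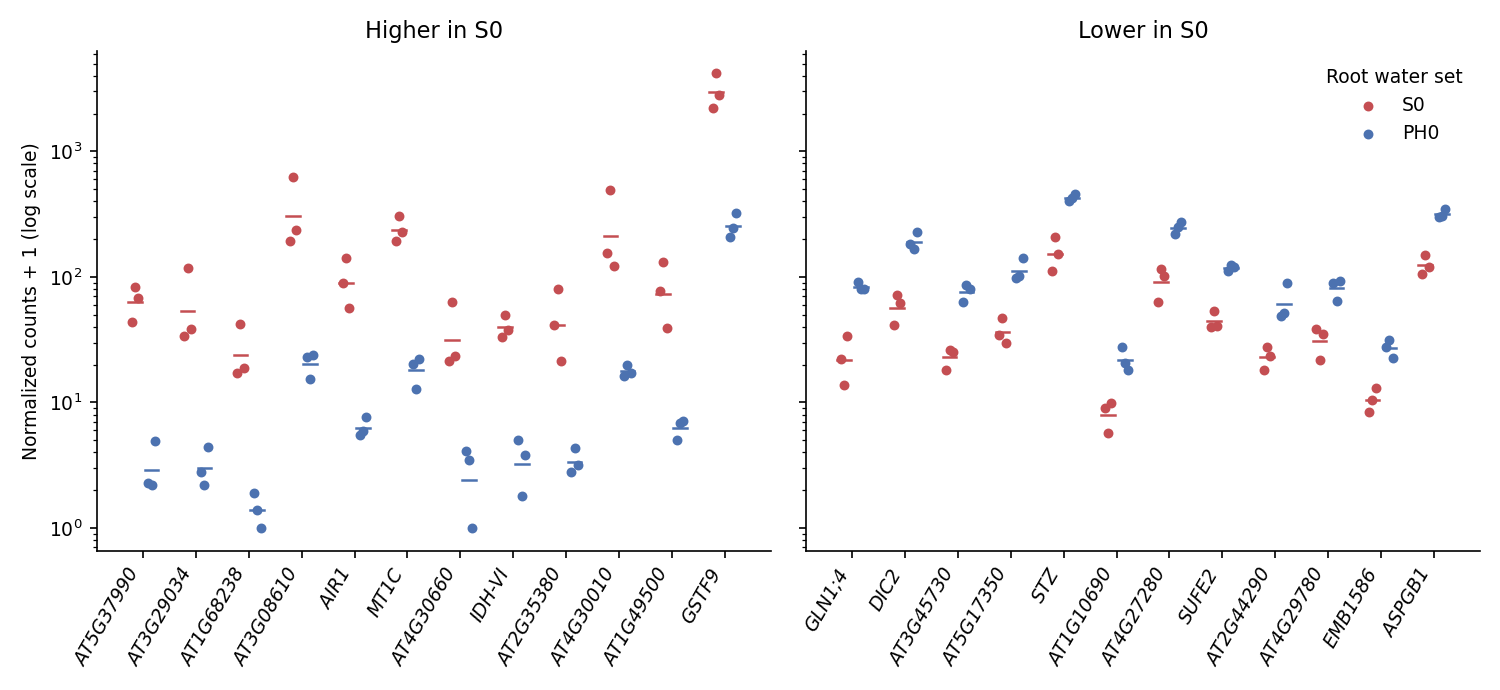
Normalized counts plus 1 (y axis, log scale) of the 12 named genes higher in S0 (left panel) and the 12 named genes lower in S0 (right panel), with 1 point per library (replicates 1 to 3 from left to right) for S0 and for PH0, and a bar at the geometric mean. The 24 genes were chosen so that the sets do not overlap, and replicate 2 is the highest S0 point in all 12 genes of the left panel.

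For comparison, 26 lists of genes with known roles were set beside these results. Their medians are read against 0.29 for all 11950 genes, of which 7764 were above 0 and 4186 below. Of 328 tested list members, each gene counted once, 23 (7.01%) were called, against 3.87% of all tested genes. The lists were chosen with earlier results of these data known, so this share is a description. In the fit over the root libraries all 23 lost their call without S0 replicate 2 and without each of the 3 PH0 replicates. There 22 lost it without S0 replicate 1 and 21 without S0 replicate 3. All 23 were called in the fit of the compared libraries without S0 replicate 2. That fit called 4816 of 11950 genes, among them all 463 of the main fit, so this is not particular to the list members. Fits below that leave out 1 library are those over the root libraries. With TMM factors 13 of the 23 were not called, and with medians set to 0 10 were not. The counts for single lists are small and read against 3.41% of all genes called higher and 0.46% called lower.

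The touch and rapid stress list had the lowest median of the 26 lists and the most calls on the lower side. Of 24 tested members 3 were lower and none higher, 20 were below 0, and the median was -0.58. TCH3, a calmodulin-like calcium sensor, had 224.8, 246.9 and 305 in S0, against 620.1, 605.6 and 588.8 in PH0 (log2 difference -1.23 ± 0.31 SE; limma adjusted p = 0.0434). CZF1, a zinc-finger protein induced by chitin, had 131.9, 133 and 119.1 in S0, against 236.4, 215.4 and 213.4 in PH0 (-0.79 ± 0.20; limma adjusted p = 0.0455). The third was STZ. Of members that did not pass, the next were chosen after their values were seen. ERF104, an ethylene response factor, had 90.4, 115.6 and 77 in S0, against 157.6, 203.5 and 224 in PH0 (-1.04; limma adjusted p = 0.059). SZF1, a zinc-finger relative of CZF1, had 21.1, 22.2 and 31.2 in S0, against 58.6, 54.7 and 62 in PH0 (-1.22; limma adjusted p = 0.061). CML24, another calmodulin-like protein, lay on the other side with 5, 23.7 and 8.3 in S0 and 1.3, 4.1 and 2.2 in PH0 (1.73; limma adjusted p = 0.099). The list median was below that of all genes under TMM, quantile normalization, edgeR, DESeq2 and median centring as well, at -0.90, -0.94, -0.96, -0.96 and -1.05. TCH3, CZF1 and STZ were called under each of these scalings, and not with a pseudocount of 0.5 or without the mean-variance trend. In PS0 and under PEG with SHAM, TCH3 averaged 916.5 in PS0 and 1235, 916.5 and 947.4 at 1, 2 and 3 h, so S0 had the lowest mean of the 6 root groups.

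Genes of nitrate response were the list with the most calls. Of 15 tested members 4 were higher and none lower in S0, with a median of 0.67. NIR1, the nitrite reductase, had 287.4, 299.2 and 384.5 in S0, against 152.2, 154.2 and 161.4 in PH0 (log2 difference 1.04 ± 0.22 SE; limma adjusted p = 0.0262). RFNR2, a root ferredoxin reductase that supplies electrons for nitrite reduction, had 107.8, 136.1 and 128 in S0, against 27.3, 18.9 and 24 in PH0 (2.36 ± 0.51; limma adjusted p = 0.0302). The PH0 values of NIR1 lay within a few counts of each other. HRS1, a repressor that links nitrate and phosphate signals in root growth, had 310.9, 201 and 243.8 in S0, against 93.6, 95.4 and 95.5 in PH0 (1.38 ± 0.28; limma adjusted p = 0.024). LBD39, a repressor of nitrogen genes, had 167.2, 150.4 and 138.8 in S0, against 70.3, 85.1 and 76 in PH0 (0.97 ± 0.27; limma adjusted p = 0.0498). Members that did not pass were picked for their role after their values were seen. The nitrate reductases NIA1 and NIA2 had log2 differences of 0.53 and 0.13, and the transporters NRT1.1 and NRT2:1 0.27 and 0.67, none past the test. NIR1 and LBD39 were not called with TMM factors, edgeR or medians set to 0, and LBD39 not with DESeq2 either. RFNR2 was not called with TMM factors, and HRS1 not with medians set to 0. None of the 4 was called in the 6 fits without 1 library.

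Other nutrient lists held 1 call at most. SULTR1;2, the main sulfate importer of roots, had 30.3, 58.6 and 43.3 in S0, against 5.8, 7.8 and 11.7 in PH0 (log2 difference 2.25 ± 0.57 SE; limma adjusted p = 0.0434), and was 1 of 7 tested sulfur genes to pass. It was not called with TMM factors, medians set to 0 or a pseudocount of 0.5. SRG3, a phosphodiesterase that acts on lipid breakdown products, was 1 of 8 phosphate genes to pass. It had 68.7, 45.9 and 57.9 in S0, against 107.4, 120.9 and 100.6 in PH0 (-0.93 ± 0.24; limma adjusted p = 0.0439). It was not called with TMM factors or a pseudocount of 0.5. Of 9 tested iron deficiency genes none passed, with a median of 0.65 and a range from -0.10 to 0.78. ASN1, the asparagine synthetase induced in the dark and by sugar shortage, had 34.1, 58.6 and 53.5 in S0, against 83.3, 108.1 and 125.7 in PH0 (-1.12 ± 0.28; limma adjusted p = 0.0434). It was the only call among 18 sugar starvation genes, whose median was 0.46, and was not called with a pseudocount of 0.5. In PS0 the ASN1 values were 480.8, 265.6 and 322.9, above both sets.

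Of 19 tested aquaporins 2 passed, both of the plasma membrane and both higher in S0. PIP2;1 had 3306, 2495 and 2596 in S0, against 1411, 1562 and 1649 in PH0 (log2 difference 0.85 ± 0.23 SE; limma adjusted p = 0.0494). PIP2;3 had 306.6, 226.4 and 298.6 in S0, against 115.5, 111.4 and 130.2 in PH0 (1.2 ± 0.28; limma adjusted p = 0.0364). PIP2;3 is nearly identical to its neighbour PIP2;2, so reads of the copies may have been split or dropped. The summed level of the 19 aquaporins was 30576, 26291 and 27018 in S0 and 21097, 21525 and 23134 in PH0. These sums did not overlap. Neither gene was called with TMM factors or medians set to 0. PIP2;1 kept its call in 7 of 22 settings and also lost it with quantile normalization, edgeR, no filter and the replicate number as a block.

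Among cell type lists, the root hair genes had a median of 0.68, with 14 of 16 tested members above 0 and 1 called. In bulk roots, fewer cells of a type and less RNA per cell cannot be told apart. PER73, a peroxidase of root hairs, had 94.8, 117.1 and 63.7 in S0, against 18.8, 16.9 and 22.3 in PH0 (log2 difference 2.16 ± 0.47 SE; limma adjusted p = 0.0302). With TMM factors PER73 was not called. EXPA7 and EXPA18, expansins of growing root hairs chosen after their values were seen, had differences of 0.09 and 0.44 without passing. In PS0 the root hair sum was 646.8, 815.4 and 909.6, below each S0 and each PH0 library.

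The endodermis and suberin list had 1 call of 13, CYP86B1, a hydroxylase of suberin monomers. It had 6.2, 19 and 10.2 in S0, against 0.9, 2.9 and 0.6 in PH0 (log2 difference 2.36 ± 0.54 SE; limma adjusted p = 0.0354). CYP86B1 was not called with TMM factors, medians set to 0 or a pseudocount of 0.5. The dividing cell list had the highest median of all lists, 1.90 with and 1.52 without S0 replicate 2, with 6 of 9 tested members at 1.5 or more, yet none was called. The examples that follow were chosen after their values were seen. PCNA1, the sliding clamp of DNA replication, had 12.4, 30.1 and 13.4 in S0, against 3.1, 2.5 and 1.1 in PH0 (2.55; limma adjusted p = 0.062). CYCB1;1, a mitotic cyclin, had 6.2, 19 and 10.8 in S0, against 0.9, 2.5 and 3.9 in PH0 (1.90; limma adjusted p = 0.11). PLT1, a stem cell factor of the root tip, had 12.4, 4.7 and 8.9 in S0 and 6.7, 8.2 and 10.1 in PH0 (-0.02). These genes rested on few counts, and replicate 2 was the highest S0 library for PCNA1 and CYCB1;1. CDC20.1, of the same list, went the other way without overlap, with a mean of 19.8 in S0 and 32.7 in PH0 (-0.68; limma adjusted p = 0.37). CDKB2;1 had a difference of 0.33, and its values overlapped between the sets. The photosynthesis genes were all above 0, 25 of 25, with a median of 0.91 and 1 call, PSAF, a subunit of photosystem I, at 6.2, 19 and 9.5 in S0 and 0.9, 0.8 and 1.1 in PH0 (2.57 ± 0.58; limma adjusted p = 0.0329). PSAF was not called with TMM factors or a pseudocount of 0.5.

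The phenylpropanoid, flavonoid and light list had 2 calls. C4H, which makes coumarate for lignin and flavonoids, had 298.5, 448 and 256.6 in S0, against 38.9, 37 and 40.8 in PH0 (log2 difference 3.03 ± 0.55 SE; limma adjusted p = 0.0138). It kept its call without S0 replicate 1 or 3 and lost it without S0 replicate 2 or any PH0 replicate. HYH, a light-signalling transcription factor, had 17.3, 28.5 and 10.2 in S0, against 1.3, 0 and 1.7 in PH0 (3.31 ± 0.71; limma adjusted p = 0.0293). The other 15 tested members did not pass, and the list median was 0.21. CYP79B2 and CYP79B3, which start the synthesis of indole glucosinolates from tryptophan, were both higher in S0 and were the 2 calls among 6 defence genes. CYP79B2 had 266.3, 357.7 and 358.4 in S0, against 154, 162.8 and 180.4 in PH0 (0.97 ± 0.23; limma adjusted p = 0.0377). CYP79B3 had 122, 47.5 and 72.6 in S0, against 9.4, 21.4 and 16.8 in PH0 (2.24 ± 0.60; limma adjusted p = 0.0483). Neither was called with TMM factors or medians set to 0.

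Hormone and stress lists held few calls. VSP1, a storage protein induced by jasmonate, had 33.4, 25.3 and 31.8 in S0, against 6.7, 3.3 and 5.6 in PH0 (log2 difference 2.36 ± 0.42 SE; limma adjusted p = 0.0138), and was 1 of 14 jasmonate genes to pass. PS0 had 71.9, 65.5 and 183.2, above both sets. AFP1, which restrains the abscisic acid factor ABI5, was the 1 call among 28 dehydration and abscisic acid genes, at 16.7, 11.1 and 12.7 in S0 and 8.1, 5.3 and 2.8 in PH0 (1.25 ± 0.34; limma adjusted p = 0.0496). It kept its call in 8 of 22 settings and lost it with TMM, quantile normalization, edgeR, DESeq2 and medians set to 0. A share of 1 in 28 is near the 3.87% of all genes. None passed among 12 circadian clock, 14 low oxygen, 9 heat shock, 15 detoxification and alternative respiration, 8 ethylene, 8 auxin, 5 cytokinin, 12 cell wall growth, 6 ribosome biogenesis and 2 glutaredoxin genes. Their medians were -0.08, 0.88, -0.08, 0.11, 0.41, 0.01, 1.22, 0.33, -0.40 and 0.83. With quantile normalization the iron and glutaredoxin medians were -0.25 and -0.04, against -0.14 for all tested genes. With medians set to 0 those of cell wall growth and ethylene were -0.13 and -0.05, against -0.18 for all tested genes.

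**Figure D4:**
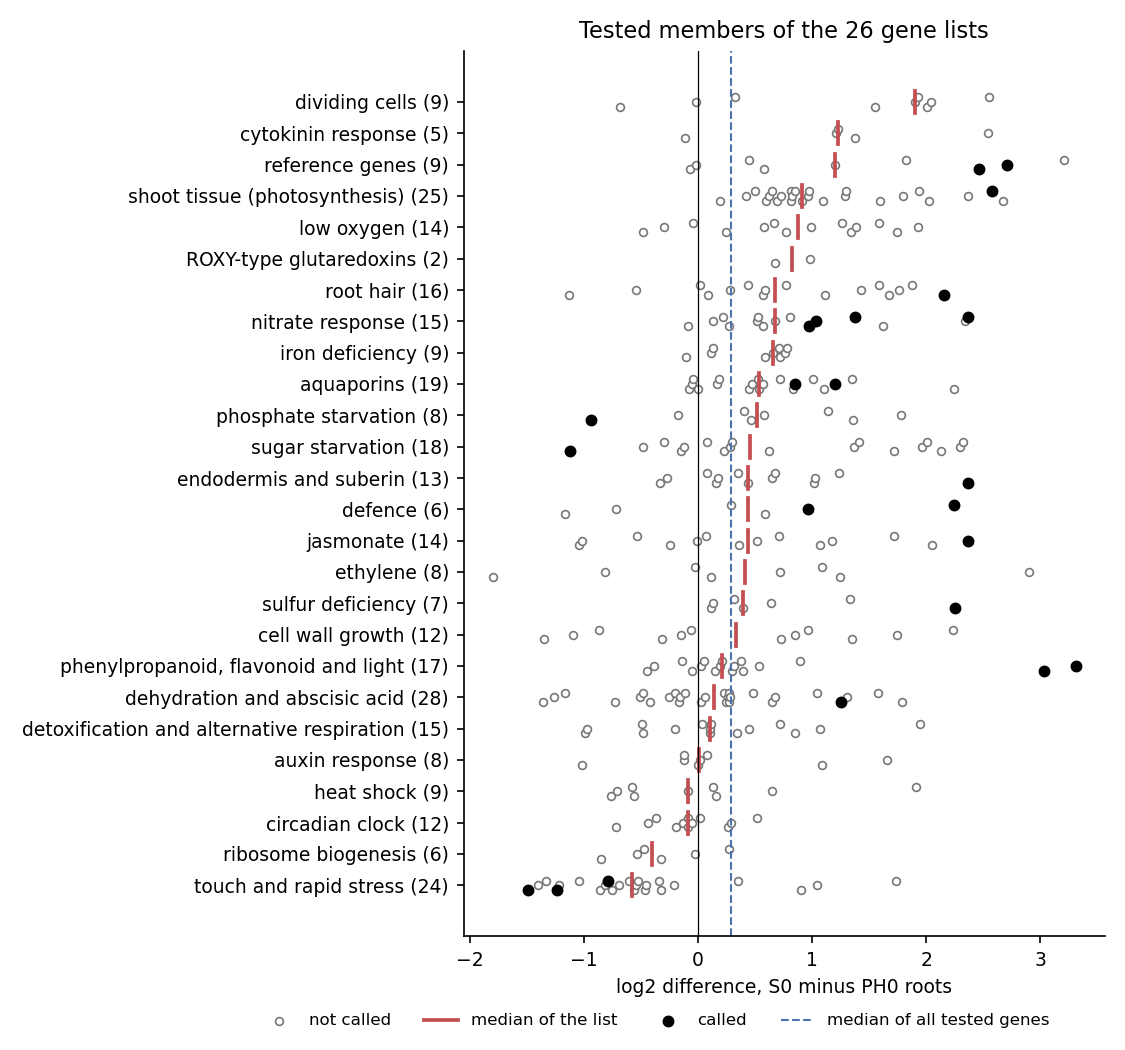
Log2 difference between S0 and PH0 roots (x axis) of each tested member of the 26 gene lists (y axis, with the number of tested members), ordered by the list median (red bar). Filled points passed the test, open points did not, and the dashed line marks the median of all tested genes at 0.29. The touch and rapid stress list lies lowest at -0.58 and the dividing cell list highest at 1.90.

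Reference genes were no exception to the differences. ACT2, an actin, had 418.7, 794.6 and 331.7 in S0, against 68.5, 72.4 and 76.5 in PH0 (log2 difference 2.71 ± 0.57 SE; limma adjusted p = 0.0268). ACT8, its close relative, had 198.2, 335.6 and 180.8 in S0, against 37.6, 41.1 and 44.1 in PH0 (2.46 ± 0.55; limma adjusted p = 0.032). The actin values did not overlap between the sets. Uncalled members were chosen after their values were seen. YLS8, a splicing factor, had 75.6, 231.1 and 78.3 in S0, against 9, 9 and 16.8 in PH0 (3.21; limma adjusted p = 0.059). UBQ10, a polyubiquitin, had 3109, 3452 and 3342.5 in S0 and 3041, 3124 and 3931 in PH0 (-0.02; limma adjusted p = 0.98). GAPC1, a cytosolic glyceraldehyde-3-phosphate dehydrogenase, had 1214, 1319 and 1355 in S0 and 888.2, 923.9 and 797.7 in PH0 (0.58; limma adjusted p = 0.11). Of 9 reference genes 2 were called, 4 were at 1.5 or more and the median was 1.2 with and 0.56 without S0 replicate 2. Single members ranged from -0.07 to 3.21. Both actins were called under every scaling tried, and in none of the 6 fits without 1 library.

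The PS0 mean lay between the S0 and PH0 means for most called genes. These genes were called for their gap between S0 and PH0, which by itself favours a PS0 mean in between. The PS0 mean was between the S0 and PH0 means in 354 of the 408 genes higher in S0, below PH0 in 37 and above S0 in 17. For the 55 lower genes it was between in 33, above PH0 in 16 and below S0 in 6. The share over all tested genes was not computed, so these counts are a description. PS0 replicate 3, with 521 kiloreads, had the highest PS0 median of the 968 genes above, at 34.2. Its part in the PS0 means was not tested. PS0 libraries entered the fit for the spread alone.

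In shoots the same sets differed in 1726 of 10459 tested genes (16.5%), 1187 (11.3%) higher and 539 (5.15%) lower in S0. Of the 408 genes higher in S0 roots, 211 were tested in shoots, where 76 were called higher and 2 lower, and 190 were above 0. Of the 55 genes lower in S0 roots, 54 were tested, and 20 were called lower and none higher. Their median shoot differences were 1.55 and -0.58, against 0.31 for all tested shoot genes. Here too the S0 shoots alone could admit a gene to the test, which favours high shoot differences. The shoot count was 492 without S0 shoot replicate 1 and 713 without S0 shoot replicate 2. PH0 shoot replicate 1 held 162 kiloreads, the fewest of the series.

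STZ had 71.1, 89.6 and 95.8 normalized counts in S0 shoots, against 466.3, 466.4 and 400.7 in PH0 shoots (log2 difference -2.37 ± 0.48 SE; limma adjusted p = 0.00442). Its values were low in S0 in both tissues. ASN1 likewise had 652.2, 685.9 and 421.9 in S0 shoots, against 1077, 1309 and 1743 in PH0 shoots (-1.23 ± 0.22; limma adjusted p = 0.00243). GSTF9 had 1447, 869.2 and 595.2 in S0 shoots, against 111, 11.5 and 35.5 in PH0 shoots (4.61 ± 0.94; limma adjusted p = 0.00474). TCH3 had 2221, 2851 and 1895 in S0 shoots and 1776, 1707 and 2043 in PH0 shoots (0.32; limma adjusted p = 0.34), and its root and shoot differences were -1.55 apart without passing the test of that difference (limma adjusted p = 0.112). For ACT2 the shoot difference was 0.01, and the root difference exceeded it by 2.70 (limma adjusted p = 0.207).

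The difference between the sets was itself tested between roots and shoots in 9191 genes, and 13 passed (0.141%), 8 (0.087%) with a larger and 5 (0.0544%) with a smaller value in roots. AT5G62720 had the lowest p among them. In shoots it had 513.1, 612.5 and 654.9 normalized counts in S0 and 566.2, 974.8 and 936.2 in PH0, a log2 difference of -0.44, while the root difference was 2.65. Leaving out 1 library moved the count of 13 to between 2 and 48, the highest without PH0 shoot replicate 2. GSR2, a cytosolic glutamine synthetase, had 718.4, 851.6 and 979.2 in S0 roots, against 249.8, 277.1 and 302.8 in PH0 roots, and 630.6, 656 and 623 in S0 shoots, against 877.1, 889.4 and 1048 in PH0 shoots. Its values were higher in S0 in roots and lower in S0 in shoots, without overlap in either tissue (root minus shoot 2.16; limma adjusted p = 0.0382).

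**Figure D5:**
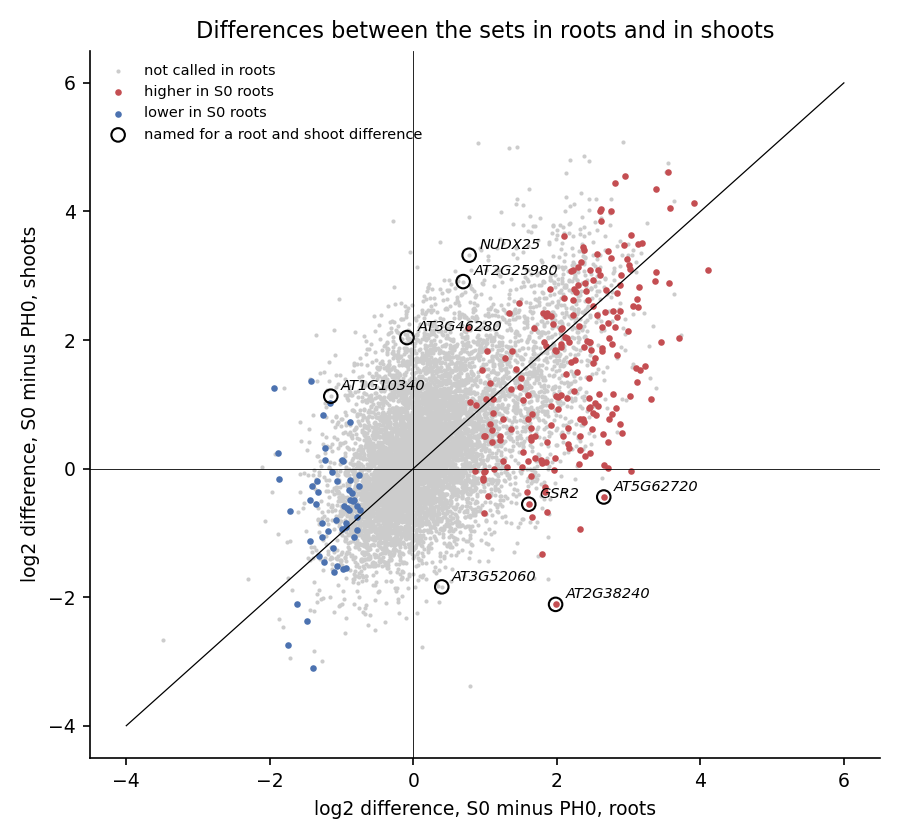
Log2 difference between S0 and PH0 in roots (x axis) and in shoots (y axis) for the 9191 genes tested in both tissues, with genes called in roots coloured and the 8 genes named for a difference between the tissues circled. The diagonal marks equal differences. Most red points lie above 0 on both axes, and AT5G62720, GSR2 and AT2G38240 lie to the right of 0 and below it.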

How the data were processed

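MARS-seq libraries of roots and shoots came as 1 table of normalized signal, gene counts which the authors had divided by 1 factor per library and deposited at steps of 0.1. The table held 16283 genes and 36 libraries, and all 36 columns were assigned by their labels. Per the submitters' processing notes, the tools were STAR 2.4.2a, DESeq2, HTSeq, cutadapt and bcl2fastq; their roles are not stated. Build, annotation, strandedness, gene filters and the use of molecular identifiers: not given in the sources used here. Reads of overlapping or antisense genes and of close copies may therefore be mixed, and neither coordinates nor sequences are printed.

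Whole reads were recovered from the deposited signal from the spacing of values in each library, since every value is a whole multiple of what 1 read is worth there. Within the rounding tolerance of 0.05, 100% of values came out whole, and in 36 of 36 simulated libraries the step was found. These reads gave the depths and entered edgeR 4.0.16 and DESeq2 1.42.0 as alternatives, which called 865 and 1553 root genes. Gene names and products come from RefSeq TAIR10.1 by locus identifier, which matched 99.4% of the genes.

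Genes reaching 5 in 3 or more of the 18 libraries of a tissue were tested with limma 3.58.1 (R 4.3.3), with a mean-variance trend, on log2(value + 1), so fold changes of low genes are understated. The 6 groups of a tissue shared 1 estimate of the spread per gene with 12 residual degrees of freedom. Limma moderated it across genes, which adds to these degrees of freedom. The contrast was S0 minus PH0, and for the tissue difference the root contrast minus the shoot contrast over 36 libraries. On simulated counts for the root comparison with 11950 genes, 55 of 100 genes changed by 2 on the log2 scale were called, as were 3 of 100 changed by 1 and 1 unchanged gene. The named genes are the 12 largest called differences in each direction whose mean reached 20 in the higher set, without overlap, called list members (at most 4 a list), and the 4 most positive and 4 most negative called differences between tissues, where 1 group mean reached 20. Organelle genes were not named. Libraries are biological replicates of pooled seedlings, per the labels' protocols. The libraries, the lists and the rules were chosen with earlier results of these data known.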

Additional observations from a re-analysis of the deposited data

Results flagged for a closer look

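The 8 genes below are listed because the difference between S0 and PH0 itself differed between roots and shoots, by limma over all 36 libraries with Benjamini-Hochberg adjustment over 9191 genes. Values are the root difference minus the shoot difference on the log2 scale, with SE. AT5G62720, of the HPP membrane protein family, stood at 3.096 ± 0.36 (limma adjusted p = 1.05e-05). AT2G38240, annotated as an oxygenase dependent on 2-oxoglutarate and iron, stood at 4.095 ± 0.67 (limma adjusted p = 0.00413), with 5, 12.7 and 18.5 normalized counts in S0 roots, against 2.7, 1.6 and 1.7 in PH0 roots, and 3.1, 5.4 and 6.6 in S0 shoots, against 66.6, 8.9 and 23.1 in PH0 shoots. Its highest shoot value came from the library with 162 kiloreads. AT3G52060, annotated as a glucosaminyltransferase, stood at 2.24 ± 0.43 (limma adjusted p = 0.0195), with 27.3, 42.7 and 21 in S0 roots and 21.9, 24.3 and 19.6 in PH0 roots, and 23.2, 27.2 and 24 in S0 shoots, against 99.9, 89.2 and 85.1 in PH0 shoots. GSR2, the glutamine synthetase described above, stood at 2.16 ± 0.46 (limma adjusted p = 0.0382).

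On the negative side, NUDX25, a nudix hydrolase, stood at -2.54 ± 0.50 (limma adjusted p = 0.0203), with 275.1, 282.5 and 151.3 normalized counts in S0 shoots, against 22.2, 24.2 and 19.5 in PH0 shoots, and 53.3, 33.2 and 47.7 in S0 roots, against 28.7, 22.6 and 24.6 in PH0 roots. AT1G10340, an ankyrin repeat protein, stood at -2.28 ± 0.42 (limma adjusted p = 0.0187), with 16.1, 19 and 15.9 in S0 roots, against 35.8, 36.6 and 44.7 in PH0 roots, and 85, 63.8 and 70.5 in S0 shoots, against 33.3, 39.5 and 26.6 in PH0 shoots. AT2G25980, a mannose-binding lectin, stood at -2.21 ± 0.43 (limma adjusted p = 0.0203), but it was at 0 in all 3 PH0 shoot libraries, so this value depends on the pseudocount and is no bound. AT3G46280, annotated as kinase-like, stood at -2.13 ± 0.44 (limma adjusted p = 0.026), with 179, 215.3 and 170 in S0 roots and 208.6, 206.8 and 182.7 in PH0 roots, and 230.3, 259.4 and 201.1 in S0 shoots, against 122.1, 29.3 and 46.1 in PH0 shoots. Groups of 3 libraries are too small for a test of single outlying samples.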

How the results depend on the processing

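The number of root calls (463, of which 408 higher and 55 lower in S0) depended on nearly every setting, while no named gene changed direction in any. It was 122 (104 and 18) with a pseudocount of 0.5, 1755 (1578 and 177) with 5, 104 (81 and 23) with a filter of 20, 183 (92 and 91) with TMM factors, 1042 (513 and 529) with quantile normalization, 4581 (3638 and 943) in the fit of the 6 compared libraries, 2177 (1835 and 342) in that of the 9 water libraries, 865 (602 and 263) with edgeR, 1553 (1089 and 464) with DESeq2 and 1154 (939 and 215) with depth as a term. Alternatives added after the data were seen gave 2122 (1801 and 321) without root libraries under 600 kiloreads, 408 (116 and 292) with medians set to 0, 381 (360 and 21) without the mean-variance trend and 4816 (3632 and 1184) for the compared libraries without S0 replicate 2. Without filter it was 663. Leaving out 1 compared library gave 1 to 50 calls, 1 to 46 higher and 0 to 4 lower, with 2318 to 2853 genes at an unadjusted p under 0.05 apart from the fit without S0 replicate 2, which had 1838. The shoot count of 1726 ranged from 492 to 1740 when 1 library was left out, and the count of 13 between tissues from 2 to 48. The cause was not tested.

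Replicate numbers did not pair the libraries: same-numbered S0 and PH0 libraries correlated at -0.003, -0.118 and -0.054 in their deviations from the set means. With the replicate number as a block, 603 root genes (539 and 64), 1610 shoot genes and 15 genes between tissues were called; of the genes named above, the block ended the call of PIP2;1. Low counts limit the smaller differences, since a change of 1 on the log2 scale was rarely recovered in the simulation.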
